A study of Mus musculus with 15 samples.

Results

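The subject is a set of 33 mouse genes that encode claudins and other proteins of the tight junction: 18 claudins, the 3 MARVEL proteins Ocln, Marveld2 and Marveld3, the 3 junctional adhesion molecules F11r, Jam2 and Jam3, the 4 scaffold genes Tjp1, Tjp3, Cgn and Mpdz, and the 5 polarity genes Pard3, Pard6b, Prkci, Crb3 and Patj. They were taken by name from a deposited matrix of log2 array values in which 22180 genes had a transcript cluster with a single symbol, and all 33 were found there. Where several clusters named a gene, the brightest on average was used. RNA came from 15 mammary tumors that arose in ErbB2KI mice, in which Erbb2 drives tumor growth, frozen at end burden and hybridised to 1 Affymetrix array each. The groups are 5 tumors with both Ctnnb1 alleles floxed (HOM, fl/fl), 5 with a single floxed allele (HET, fl/wt) and 5 with wild-type Ctnnb1 (WT, wt/wt). All 3 groups share the ErbB2KI background, and deletion of the floxed alleles was directed to the mammary epithelium. The sources used here do not give the driver of the recombinase, the age of the mice, or whether tumors of a group came from separate mice. All p-values treat the tumors as independent, and they may be too small if some tumors came from the same mouse. They rest on tumor-to-tumor spread, which may be partly technical.

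Tight junctions seal the space between neighbouring epithelial or endothelial cells near their apical side. Claudins form the paired strands that set which ions and molecules pass, occludin and its relatives sit in the same strands and at tricellular corners, and junctional adhesion molecules mark the contact. On the inner side zonula occludens proteins and cingulin tie the strands to actin, and the Par and Crumbs complexes place the belt and keep the apical side apart. In breast cancer, low claudin 3, 4 and 7 is a defining feature of the tumor class called claudin-low.

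Ctnnb1, which encodes beta-catenin, was looked at as a check of the labels. Its log2 value was 11.15 to 12.01 in HOM tumors, 11.22 to 11.66 in HET tumors and 11.22 to 12.10 in WT tumors. The groups overlapped, and no pair of genotypes differed by a two-sided exact permutation test (p = 0.143 for HOM against WT, 0.0952 for HET against WT and 0.905 for HOM against HET). The tumor labelled HOM 5 had the highest HOM value, inside the range of WT 1 to WT 4, and the tumor labelled WT 5 had the lowest WT value, inside the range of HOM 1 to HOM 4. The Ctnnb1 values of these 2 tumors go against their labels, but since the groups overlap they cannot show whether a label is wrong. Each result below that involves HOM or WT rests on labels that include these tumors. Tumors also differed in markers of cell types. The mean of 17 epithelial markers that are no tight junction genes, all 17 of them tested, was 9.97 to 10.82 in HOM tumors, 7.72 to 10.66 in HET tumors and 9.84 to 10.86 in WT tumors, with HET 1 at 7.72 and HET 4 at 9.30. HET 1 also had the highest mean of 5 tested B and plasma cell markers, 9.81 against 5.34 to 7.30 in the other 14 tumors. HET 3 had the highest mean of 6 tested skeletal muscle markers, 11.47 against 5.84 to 6.98. In whole tumors, fewer cells of a type and less RNA per cell cannot be told apart.

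Of the 33 genes, 28 lay above their array's median on at least 5 arrays and were tested. Cldn2, Cldn6, Cldn9, Cldn14 and Cldn18 did not pass this filter. These 5 are known mainly from other tissues: Cldn2 forms cation pores in leaky epithelia such as kidney and gut, Cldn6 belongs to embryonic epithelium, Cldn9 and Cldn14 act in the inner ear, and Cldn18 in stomach and lung. Cldn14 and Cldn18 were above the array median on 0 of 15 arrays, with log2 values of 4.85 to 5.29 and 4.82 to 5.37. Cldn9 reached it on 2 arrays and Cldn2 and Cldn6 on 3. Cldn2 was 6.92 in HOM 1 and 6.02 in WT 5, and 3.53 to 5.73 in the other 13 tumors. Cldn6 was 6.19 in HOM 1, 6.10 in HET 2 and 5.86 in HET 4, and at most 5.43 elsewhere.

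Promoter sequences are shown for 6 of the genes that were below every WT tumor in both HOM 5 and HET 1, described below. These 6 include 2 pairs of direct neighbours. Cldn12, Tjp3, Marveld3, Cgn, Pard6b, Prkci and Patj were also below every WT tumor in both, and their sequences are not shown. For Marveld3 no promoter sequence was available. Cldn3 lies next to Cldn4, and Ocln next to Marveld2, with 0 protein-coding genes between them in the RefSeq table of assembly GRCm38.p6. Each sequence is the 250 bases before the most upstream RefSeq start, written 5′ to 3′ on the gene's strand. Capitals mark the E-box CACCTG, or its reverse complement CAGGTG, which Snail and Zeb repressors bind in epithelial genes.
Cldn3, chr5:134985964-134986213, plus strand: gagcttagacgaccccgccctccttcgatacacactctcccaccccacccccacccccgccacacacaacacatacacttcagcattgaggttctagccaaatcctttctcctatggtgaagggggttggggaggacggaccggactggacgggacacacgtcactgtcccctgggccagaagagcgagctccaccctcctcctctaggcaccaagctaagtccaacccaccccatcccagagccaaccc
Cldn4, chr5:134946935-134947184, minus strand: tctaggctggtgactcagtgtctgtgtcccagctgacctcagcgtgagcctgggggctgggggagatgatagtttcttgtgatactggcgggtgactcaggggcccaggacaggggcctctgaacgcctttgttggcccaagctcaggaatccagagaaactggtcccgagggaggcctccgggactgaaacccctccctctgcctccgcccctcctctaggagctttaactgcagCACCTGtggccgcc
Cldn7, chr11:69964529-69964778, plus strand: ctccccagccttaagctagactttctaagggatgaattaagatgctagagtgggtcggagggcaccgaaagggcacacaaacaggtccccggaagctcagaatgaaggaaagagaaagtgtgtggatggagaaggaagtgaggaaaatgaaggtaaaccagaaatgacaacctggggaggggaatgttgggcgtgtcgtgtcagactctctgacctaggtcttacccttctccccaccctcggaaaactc
Ocln, chr13:100552719-100552968, minus strand: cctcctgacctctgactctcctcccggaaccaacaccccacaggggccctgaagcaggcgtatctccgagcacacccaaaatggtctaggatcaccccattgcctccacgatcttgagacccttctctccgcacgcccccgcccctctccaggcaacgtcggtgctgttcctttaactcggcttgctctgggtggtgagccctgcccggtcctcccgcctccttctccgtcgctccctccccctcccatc
Marveld2, chr13:100616972-100617221, minus strand: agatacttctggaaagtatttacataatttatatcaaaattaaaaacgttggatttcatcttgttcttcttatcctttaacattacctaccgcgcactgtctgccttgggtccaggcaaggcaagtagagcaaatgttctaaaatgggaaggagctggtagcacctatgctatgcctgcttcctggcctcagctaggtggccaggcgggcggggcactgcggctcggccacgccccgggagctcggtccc
Crb3, chr17:57061951-57062200, plus strand: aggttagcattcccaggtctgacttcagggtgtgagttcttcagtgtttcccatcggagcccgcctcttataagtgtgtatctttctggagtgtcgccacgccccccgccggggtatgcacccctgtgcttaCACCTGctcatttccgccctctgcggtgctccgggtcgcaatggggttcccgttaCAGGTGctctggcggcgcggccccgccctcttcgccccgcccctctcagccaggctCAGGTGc
The Crb3 window held 3 matches, the Cldn4 window 1, and the windows of Cldn3, Cldn7, Ocln and Marveld2 held 0. Over all 26 members with a promoter in the table, 7 windows (26.9%) held the E-box: Cldn4, Cldn6, Tjp3, F11r, Pard6b, Crb3 and Patj. Over all 27025 genes in the table, windows of the same length held it in 17.1%. The Grainyhead-like motif AACCGGTT, a palindrome that does not overlap the E-box and was searched because Grhl2 binds such sites in epithelial genes, was in 0 of the 26 windows and in 0.126% of all windows. A match says only that the letters are there. A window without a match says nothing of bases outside it or of other starts of the gene, which were not searched.

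Single tumors stood apart for many members. In HET 1, 13 of the 28 tested genes (46.4%) had their lowest value of all 15 tumors, while HET 1 held the lowest value of 13.9% of all 14243 tested genes. HOM 5 was lowest for 6 members, against 11.4% of all genes, and WT 1 for 4, against 13.2%. At the upper end HOM 3 had the highest value of 7 members, among them Cldn3, Marveld2, Marveld3, Tjp1 and Pard3, and HET 5 of 5 members, among them Cldn4, Cldn7 and F11r. These shares were 5.06% and 7.95% of all genes.

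**Figure D1:**
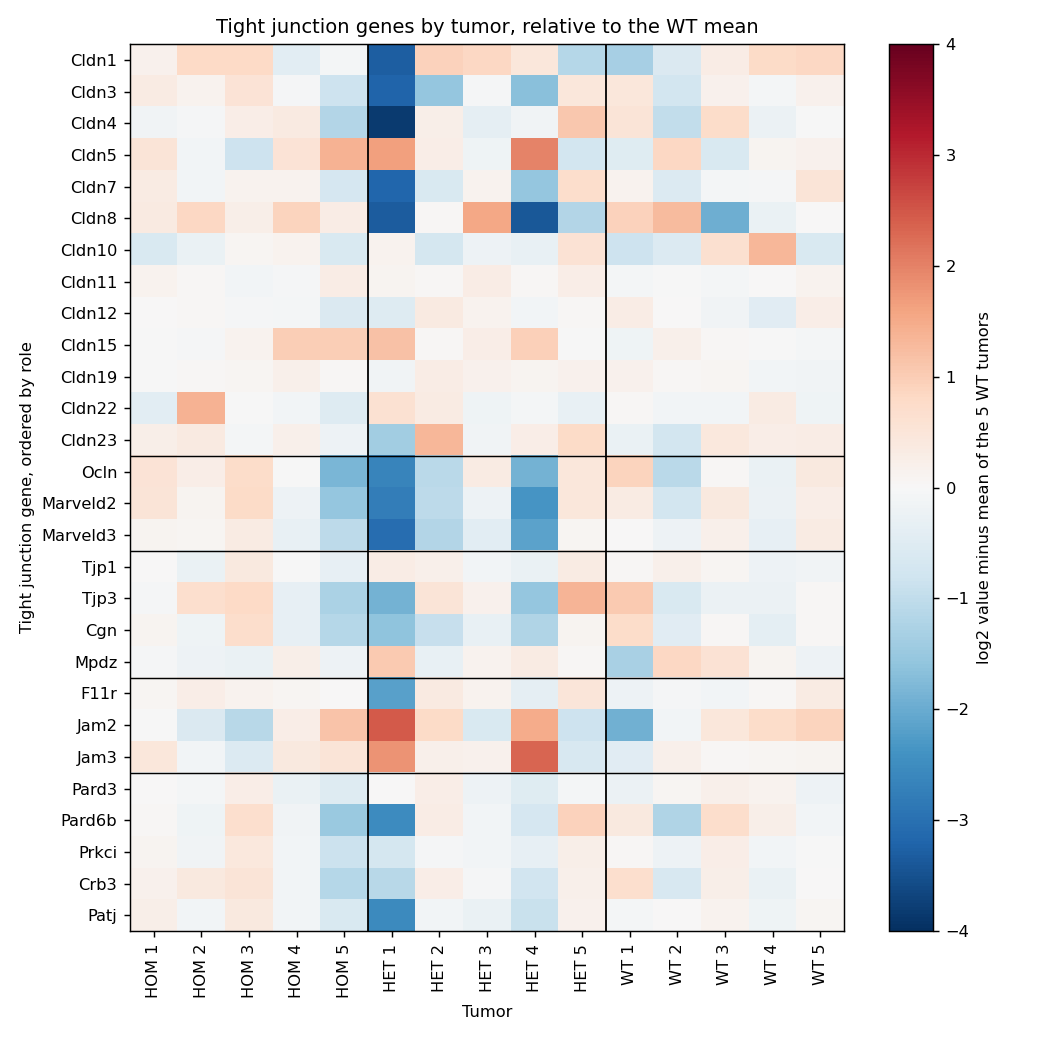
Each cell is the log2 value of 1 tight junction gene in 1 tumor minus the mean of the 5 WT tumors for that gene (blue below, red above). Columns are the HOM, HET and WT tumors, rows the 28 tested genes with claudins first, then MARVEL proteins, scaffolds, junctional adhesion molecules and polarity genes. HET 1 is blue for most epithelial members and HET 4 and HOM 5 for part of them, and the same 3 columns are red for Cldn5, Cldn15, Jam2 and Jam3.

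Setting each HOM and HET tumor against the range of the 5 WT tumors set HET 1, HOM 5 and HET 4 apart. HET 4 had the lowest value of all 15 tumors in only 1 member, Cldn8 (3.57%, against 13.5% of all genes). HET 1 had 17 members below that range, HOM 5 had 16 and HET 4 had 14, which is 60.7%, 57.1% and 50.0% of the 28, where 27.8%, 26.3% and 29.7% of all tested genes lay below it. In HET 2 there were 6 members below it, 21.4% against 25.3% of all genes, and in the other 6 tumors 1 to 3. Against WT 1 to WT 4 alone, a range chosen after the data were seen, the counts were 18 in HET 1, 16 in HOM 5 and 14 in HET 4, where 30.2%, 28.5% and 31.8% of all genes lay below it. By role, all 3 MARVEL genes were below the WT range in each of HET 1, HOM 5, HET 4 and HET 2. Of the 5 polarity genes 5 were below it in HOM 5 and 4 in each of HET 1 and HET 4, and of the 13 claudins 7 in HET 1, 5 in HOM 5 and 3 in HET 4. The epithelial marker mean was below its own WT range in HET 1 and HET 4, and inside it in HOM 5 (9.97) and HET 2 (10.40). In HOM 5, however, Epcam, Cdh1, Elf3, Esrp1, Elf5, Spint1, Spint2, St14 and Ovol1 of this list were below every WT tumor. The rest of the list lay inside the WT range there. In HET 1 every marker of the list but Krt8 and Krt19 was below every WT tumor. In HET 4 every marker but Krt8, Krt19 and Rab25 was. These exceptions lay inside the WT range, with Krt8 at 12.04 in HET 1 and 11.96 in HET 4. The lowest WT mean, 9.84, was that of WT 2, in which Krt19 was 6.43. HET 5 stood on the other side, with 12 members above the WT range, 42.9% against 16.2% of all genes. Its fibroblast marker mean (10 genes) was the lowest of the 15 tumors, 6.89 against 7.34 to 11.71, and its epithelial marker mean, 10.66, was inside the WT range. The mean of 9 tested mesenchymal markers was highest in HET 4 (10.18), HET 1 (10.10) and HOM 5 (9.78), all above the WT range of 7.60 to 9.14. Of these markers Vim, Cdh2, Zeb1, Snai1 and Twist2 were above every WT tumor in all 3, and Fn1, Snai2, Twist1 and Sparc were not. Snai2 was inside its WT range of 7.56 to 9.75 in HET 1 (8.33) and HOM 5 (9.52), and was highest in HET 2 (11.71). The mean of 8 leukocyte markers was highest in HET 1 (10.25) and HET 4 (10.04), against 8.32 to 9.69 in WT tumors, and was 9.59 in HOM 5. The part of these cell types and markers in the members' values was not tested.

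**Figure D2:**
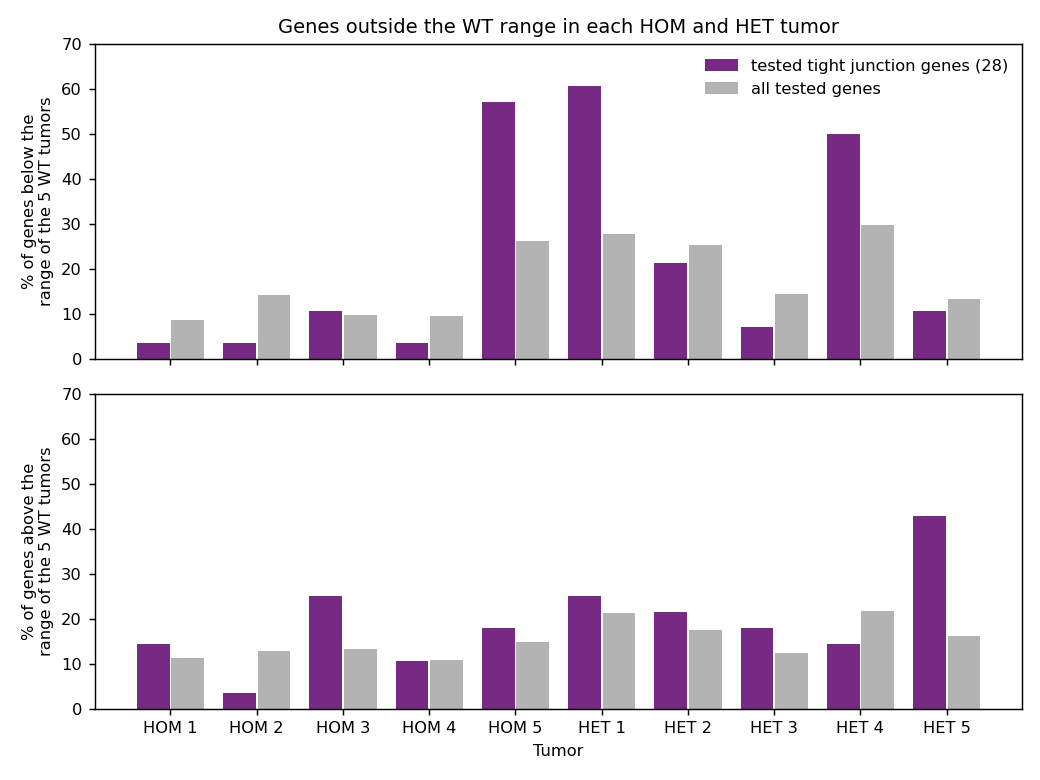
Bars give, for each HOM and HET tumor, the percentage of genes below (top) and above (bottom) the range of the 5 WT tumors, for the 28 tested tight junction genes (purple) and all 14243 tested genes (grey). The purple bar reaches 60.7% in HET 1, 57.1% in HOM 5 and 50.0% in HET 4 at the top, and 42.9% in HET 5 at the bottom.

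Claudins 3, 4 and 7 are the main claudins of simple epithelia such as the mammary duct. Cldn3 was 11.83, 11.61, 12.02, 11.42 and 10.65 in HOM 1 to HOM 5, 8.27, 9.92, 11.43, 9.83 and 11.95 in HET 1 to HET 5, and 11.93, 10.74, 11.67, 11.42 and 11.66 in WT 1 to WT 5. HET 1 was the lowest, HET 2, HET 4 and HOM 5 were also below every WT tumor, and HET 3 and HET 5 lay among or above the WT tumors. Cldn4, its neighbour in the genome, was 11.21, 11.30, 11.59, 11.70 and 10.16 in HOM tumors, 7.50, 11.56, 10.96, 11.20 and 12.42 in HET tumors, and 11.84, 10.36, 12.07, 11.09 and 11.31 in WT tumors. It shared the low value of HET 1 with Cldn3 and was also below every WT tumor in HOM 5, but in HET 2 and HET 4 it was inside the WT range. Cldn7 was 9.41, 8.96, 9.22, 9.21 and 8.40 in HOM tumors, 5.90, 8.46, 9.22, 7.52 and 9.77 in HET tumors, and 9.21, 8.54, 8.998, 9.02 and 9.59 in WT tumors. Its low tumors were those of Cldn3, with HET 1 and HET 4 lowest, and HOM 5 and HET 2 close below the lowest WT tumor.

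Cldn8, a barrier claudin known from the kidney collecting duct, had the widest range of the tested members, 4.94 on the log2 scale. It was 9.80, 10.28, 9.69, 10.32 and 9.74 in HOM tumors, 6.11, 9.50, 10.997, 6.05 and 8.26 in HET tumors, and 10.37, 10.70, 7.49, 9.19 and 9.46 in WT tumors. HET 1 and HET 4 were the lowest, HET 3 the highest, and the 5 HOM tumors lay between 9.69 and 10.32. Cldn1, a barrier claudin of skin that mammary epithelium also expresses, measured 8.05 in HET 1, while the remaining 14 tumors lay at 10.03 to 12.26. Cldn23 was likewise lowest in HET 1, at 5.26, and 5.93 to 7.99 elsewhere. HET 4 was inside the WT range for both.

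**Figure D3:**
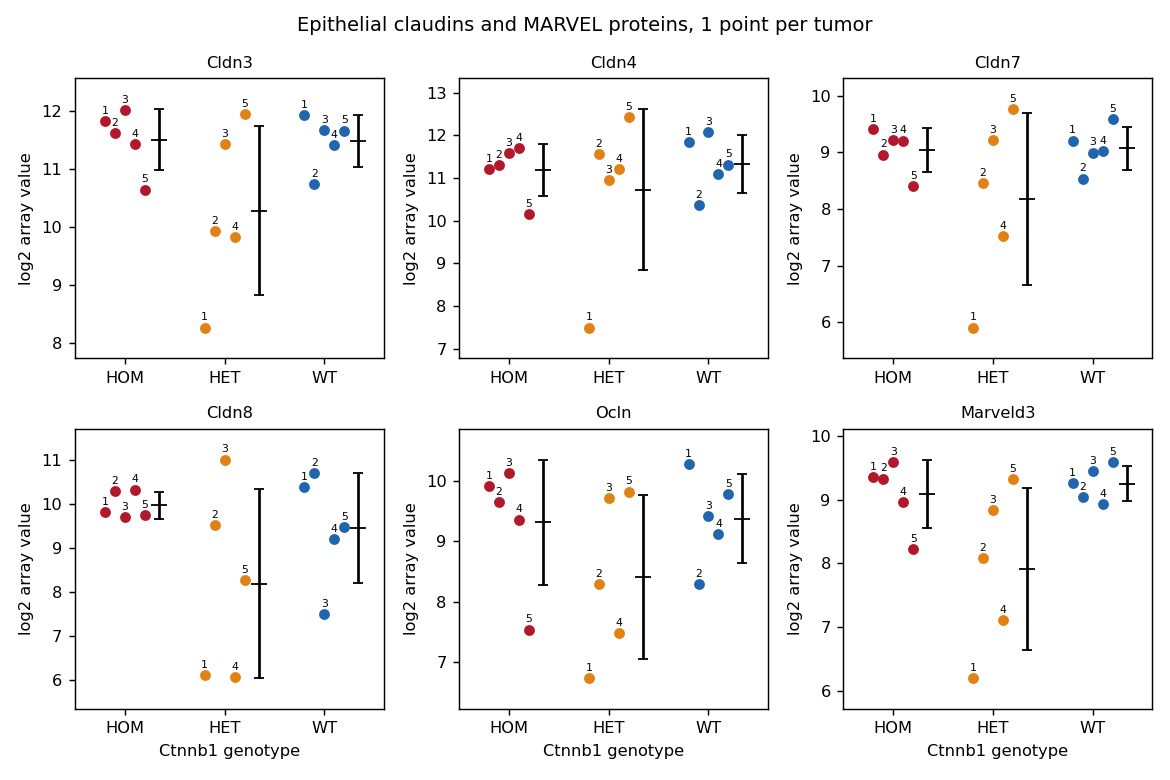
Points are single tumors, numbered within genotype, of log2 array values of Cldn3, Cldn4, Cldn7, Cldn8, Ocln and Marveld3 in HOM, HET and WT tumors. The black mark and bar beside each group are the mean and SD of 5 tumors. HET 1 is lowest in every panel but that of Cldn8, where HET 4 is lowest, and Cldn4 is the one panel in which HET 4 lies in the middle of the WT tumors.

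The MARVEL genes encode occludin, tricellulin (Marveld2), which closes the corners where 3 cells meet, and Marveld3. Ocln was 9.91, 9.65, 10.12, 9.36 and 7.54 in HOM tumors, 6.74, 8.29, 9.71, 7.48 and 9.82 in HET tumors, and 10.27, 8.30, 9.41, 9.12 and 9.78 in WT tumors. Marveld2 was 9.71, 9.29, 9.94, 8.996 and 7.64 in HOM tumors, 6.41, 8.13, 8.997, 6.83 and 9.64 in HET tumors, and 9.50, 8.45, 9.58, 8.96 and 9.44 in WT tumors. These neighbouring genes were low in the same tumors, HET 1, HET 4, HOM 5 and HET 2, and WT 2 was the lowest WT tumor for both. Marveld3 was 9.35, 9.33, 9.59, 8.96 and 8.22 in HOM tumors, 6.20, 8.08, 8.83, 7.12 and 9.32 in HET tumors, and 9.26, 9.04, 9.45, 8.93 and 9.58 in WT tumors. It was below the WT range in 5 of the 10 HOM and HET tumors, the most of any tested member, and 4 of those 5 were HET. Marveld3 was the 1 member of 28 below that range in at least 5 tumors, where 9.70% of all tested genes were. Another 6 members, Cldn3, Cldn7, Ocln, Marveld2, Cgn and Patj, were below it in 4 of 10. Together that is 7 of 28 members below it in at least 4 tumors, while 17.9% of all tested genes were. The share of members was only somewhat above that of all genes, and the difference was not tested.

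The junctional adhesion molecules went separate ways. F11r encodes JAM-A, the form of epithelium and platelets. It was 11.75, 11.94, 11.82, 11.75 and 11.70 in HOM tumors, 9.52, 12.05, 11.83, 11.31 and 12.16 in HET tumors, and 11.48, 11.63, 11.58, 11.72 and 12.002 in WT tumors. HET 1 stood far below the others, HET 4 was slightly below the WT range, and HOM 5 was inside it. Jam2, an endothelial form, was 8.58, 8.03, 7.48, 8.86 and 9.74 in HOM tumors, 11.05, 9.36, 7.97, 10.06 and 7.75 in HET tumors, and 6.66, 8.47, 9.03, 9.32 and 9.47 in WT tumors. Jam3, found in endothelium, smooth muscle and other cells, was 5.97, 5.42, 4.98, 5.91 and 6.01 in HOM tumors, 7.32, 5.72, 5.70, 7.83 and 4.88 in HET tumors, and 5.06, 5.72, 5.57, 5.58 and 5.63 in WT tumors. Both were highest in HET 1 and HET 4 and above the WT range in HOM 5, the tumors in which the epithelial members were low.

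Cldn5, the claudin of endothelium and of the blood-brain barrier, followed the same tumors. It was 7.21, 6.57, 5.84, 7.22 and 8.08 in HOM tumors, 8.31, 6.93, 6.52, 8.65 and 5.95 in HET tumors, and 6.19, 7.51, 6.08, 6.78 and 6.85 in WT tumors. Cldn15, a cation pore of the gut, was 5.62, 5.59, 5.78, 6.62 and 6.62 in HOM tumors, 6.80, 5.68, 5.91, 6.60 and 5.62 in HET tumors, and 5.47, 5.86, 5.70, 5.62 and 5.58 in WT tumors. It stood apart in HOM 4, HOM 5, HET 1 and HET 4, between 6.60 and 6.80, and was at most 5.91 in the other 11 tumors. The mean of 12 endothelial markers, all 12 tested, was 7.60 to 9.48 in HOM tumors, 7.33 to 10.07 in HET tumors and 7.61 to 8.73 in WT tumors. It was highest in HET 4 (10.07), HOM 5 (9.48) and HET 1 (8.97), and of these markers 0 lay below the median on every array. The fibroblast marker mean was highest in HET 4 (11.71) and HOM 5 (10.49). The part of endothelial or fibroblast RNA in the values of Cldn5, Cldn15, Jam2 and Jam3 was not tested.

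**Figure D4:**
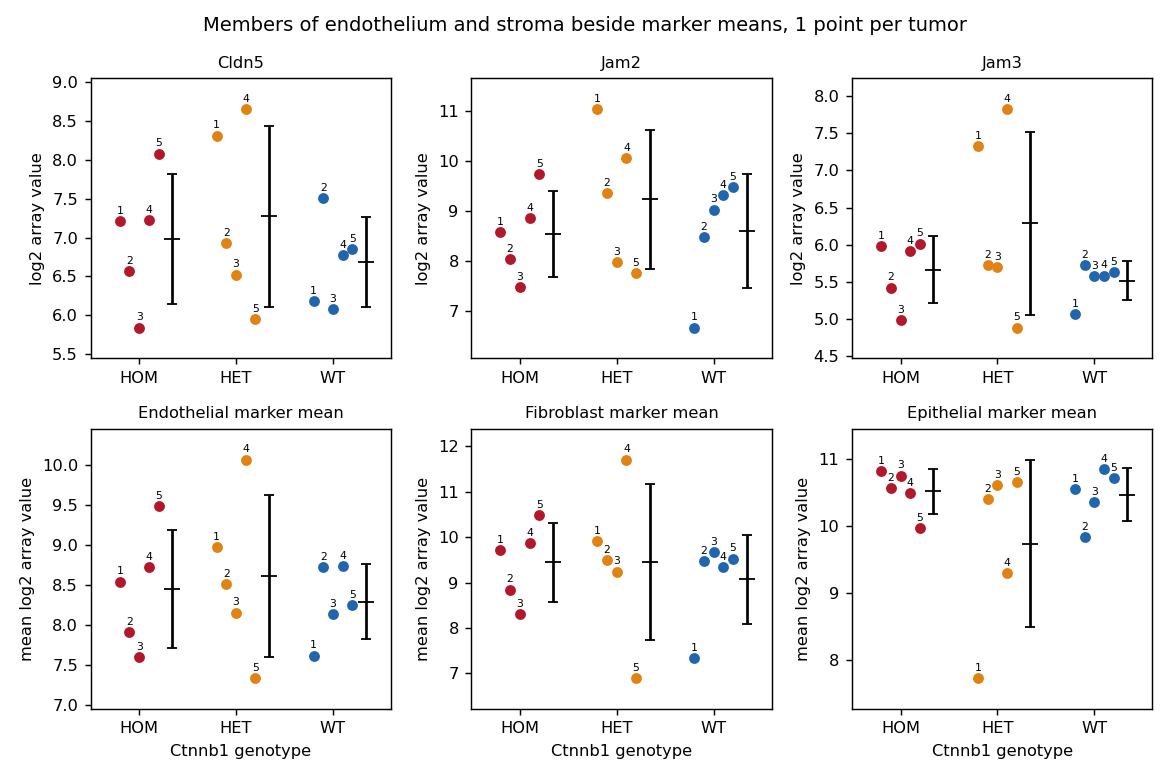
The top panels show log2 array values of Cldn5, Jam2 and Jam3, and the bottom panels the means of the endothelial (12 genes), fibroblast (10 genes) and epithelial (17 genes) marker lists, in HOM, HET and WT tumors. Points are single tumors numbered within genotype, and the black mark and bar are the mean and SD of 5 tumors. HET 1, HET 4 and HOM 5 are the 3 highest tumors for Cldn5, Jam2, Jam3 and the endothelial mean, and 3 of the 4 lowest for the epithelial mean.

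Among the 4 scaffolds Tjp1 varied least. Tjp1, which encodes ZO-1, the zonula occludens scaffold of many cell types, was 10.39, 10.11, 10.77, 10.37 and 10.04 in HOM tumors, 10.67, 10.58, 10.27, 10.10 and 10.69 in HET tumors, and 10.43, 10.60, 10.47, 10.17 and 10.23 in WT tumors. Its whole range was 0.73, and HET 1 was among the highest tumors. Tjp3, which encodes the epithelial ZO-3, ranged over 3.25 and was lowest in HET 1 (6.63), HET 4 (6.99) and HOM 5 (7.27), with 7.92 to 9.88 elsewhere. Cgn, the gene of cingulin, was 8.23, 7.94, 8.81, 7.79 and 6.98 in HOM tumors, 6.50, 7.21, 7.83, 6.92 and 8.23 in HET tumors, and 8.85, 7.68, 8.17, 7.74 and 8.16 in WT tumors. Mpdz, which encodes the multi-PDZ protein MUPP1, was highest in HET 1 at 8.49 and lowest in WT 1 at 6.15.

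Of the polarity genes, Pard3 and Prkci varied least. Patj encodes a Crumbs complex scaffold closely related to Mpdz. It was 8.73, 8.38, 8.87, 8.38 and 7.87 in HOM tumors, 5.93, 8.38, 8.22, 7.59 and 8.67 in HET tumors, and 8.40, 8.51, 8.63, 8.31 and 8.57 in WT tumors, so that HET 1 was low for Patj and high for Mpdz. Pard6b, a Par complex adaptor, was 6.16 in HET 1, 7.17 in HOM 5 and 7.46 in WT 2, and 8.003 to 9.59 in the other 12 tumors. Crb3, the epithelial Crumbs protein, was lowest in HOM 5 (6.69), HET 1 (6.72) and HET 4 (7.06). Pard3, the Par complex scaffold, and Prkci, its atypical protein kinase C, ranged over only 0.79 and 1.27. Both were lowest in HOM 5, at 8.24 and 9.74, and highest in HOM 3, at 9.02 and 11.01, and Pard3 was inside the WT range in HET 1 (8.77).

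The other tested claudins varied little or in single tumors. Cldn11, the claudin of myelin and Sertoli cells, ranged from 6.21 to 6.62, and Cldn19, known from kidney and Schwann cells, from 6.57 to 7.02, the 2 narrowest ranges among the tested members. Cldn12, a claudin without the usual PDZ-binding end, ranged from 7.20 in HOM 5 to 8.13 in HET 2. Cldn10, which has cation and anion pore forms, was 8.19 in WT 4, 7.51 in WT 3 and 7.46 in HET 5, and at most 7.02 elsewhere. Cldn22 was 7.08 in HOM 2 and 5.17 to 6.30 in the other 14 tumors.

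HET was set against WT to see the tumors in which 1 allele is floxed. Marveld3 averaged 7.91 ± 1.27 in HET and 9.25 ± 0.27 in WT (SD, n = 5 tumors each), 39.5% of the WT level, and Cldn3 averaged 10.28 ± 1.46 in HET and 11.48 ± 0.46 in WT, 43.4%. Marveld2 averaged 8.002 ± 1.38 in HET and 9.18 ± 0.48 in WT, Cgn 7.34 ± 0.70 in HET and 8.12 ± 0.47 in WT, and Patj 7.76 ± 1.10 in HET and 8.49 ± 0.13 in WT. Cldn15 had the higher HET mean, 6.12 ± 0.54, against 5.64 ± 0.15 in WT. None of these differences passed the test: the limma fit of all 3 genotypes over 14243 genes, with Benjamini-Hochberg adjustment, called 0 of the 28 members at a threshold of 0.05, where it called 0.0140% of all genes. At an unadjusted p under 0.05 there were 2 members, Marveld3 and Cldn3, both lower in HET. That is 7.14% of members, against 8.38% of all genes lower, 4.99% higher and 13.4% in either direction, so the share of members was close to or below that of all genes.

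The log2 difference, HET minus WT, of Marveld3 was -1.34 (95% interval -2.36 to -0.32, limma adjusted p = 0.274). Its raw exact permutation p was 0.0397, where 5 against 5 tumors can give no less than 0.00794. Cldn3 differed by -1.21 (-2.38 to -0.03, adjusted p = 0.364), Cgn by -0.78 (-1.57 to 0.0037, adjusted p = 0.374) and Marveld2 by -1.18 (-2.42 to 0.0585, adjusted p = 0.385). Patj differed by -0.73 (-1.58 to 0.13, adjusted p = 0.429) and Cldn15 by 0.48 (-0.0994 to 1.05, adjusted p = 0.441). Of the 28 members, 18 had a lower and 10 a higher mean in HET (54.5% of all genes were lower and 45.5% higher), with a median difference of -0.23 against -0.0299 for all genes tested. In 0 members did the 5 HET tumors lie wholly above or wholly below the 5 WT tumors, which 0.534% and 1.05% of all genes did. The median was -0.23 without WT 5. It turned to 0.0453 without HET 1. Marveld3, Cldn3, Cgn, Marveld2, Patj and Cldn15 then differed by -0.91, -0.70, -0.57, -0.78, -0.27 and 0.31. With the epithelial marker mean as a covariate the differences were -0.68 for Marveld3, -0.44 for Cldn3, -0.38 for Cgn, -0.41 for Marveld2, -0.15 for Patj and 0.15 for Cldn15, and the median of the members was 0.0212.

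HOM was set against WT to see the tumors in which both alleles are floxed. The log2 differences of the members, HOM minus WT, ran from -0.25 to 0.52, the highest being that of Cldn8 (95% interval -1.29 to 2.33). Cldn3 averaged 11.51 ± 0.53 in HOM and 11.48 ± 0.46 in WT, Cldn7 averaged 9.04 ± 0.39 in HOM and 9.07 ± 0.38 in WT, and Ocln averaged 9.32 ± 1.03 in HOM and 9.37 ± 0.74 in WT. Cldn4 was 11.19 ± 0.61 in HOM and 11.33 ± 0.67 in WT. The limma fit called 0 of the 28 members and 0% of all genes, and at an unadjusted p under 0.05 there were 0 members and 1.70% of all genes (0.541% higher and 1.16% lower in HOM). The smallest p belonged to Cldn15, at 6.04 ± 0.53 in HOM against 5.64 ± 0.15 in WT and a log2 difference of 0.40 (95% interval -0.18 to 0.97). Next were Cldn12 at -0.13 (-0.52 to 0.27), Pard3 at -0.11 (-0.47 to 0.24), Cldn19 at 0.0667 (-0.15 to 0.28), Cldn10 at -0.25 (-1.06 to 0.56) and Cldn11 at 0.0642 (-0.15 to 0.28). Every member had a limma adjusted p that rounded to 1. Without HOM 5 the differences were 0.25 for Cldn15, -0.0178 for Cldn12, -0.0098 for Pard3, 0.0748 for Cldn19, -0.16 for Cldn10 and 0.0093 for Cldn11. With any 1 tumor left out, Cldn15 ranged from 0.25 to 0.51, Cldn12 from -0.24 to -0.0178, Pard3 from -0.21 to -0.0098, Cldn19 from 0.0287 to 0.11, Cldn10 from -0.45 to 0.0803 and Cldn11 from 0.0093 to 0.11. The interval was -1.66 to 1.37 for Cldn4, -1.40 to 1.28 for Ocln, -1.15 to 1.19 for Cldn3 and -1.18 to 0.86 for Marveld3.

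Of the 28 members, 17 had a lower and 11 a higher mean in HOM than in WT (52.8% of all genes were lower and 47.2% higher). The median difference was -0.0367, against -0.0117 for all genes, and it was 0.107 without HOM 5 and -0.13 without HOM 3. Without WT 1, WT 3 or WT 5 it was 0.0108, 0.0315 or 0.0084, so its sign was not stable. Without both WT 5 and HOM 5 it was 0.12. No member had groups that did not overlap, which 0.112% of all genes had with HOM higher and 0.169% with HOM lower. Without both WT 5 and HOM 5 there was 1, F11r, at 11.75 to 11.94 in HOM 1 to HOM 4 and 11.48 to 11.72 in WT 1 to WT 4, where 3.04% of all genes did not overlap. F11r is named here after its values were seen.

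HOM and HET tumors differed most in the same epithelial members, with the same HET tumors on one side of both comparisons. Cldn8 averaged 9.96 ± 0.31 in HOM and 8.18 ± 2.15 in HET, a difference of 1.78 (95% interval -0.0307 to 3.59, limma adjusted p = 0.634). Cldn3 differed by 1.23 (0.0561 to 2.40, adjusted p = 0.618), Marveld3 by 1.18 (0.16 to 2.20, adjusted p = 0.587), Marveld2 by 1.11 (-0.13 to 2.35, adjusted p = 0.647), Patj by 0.69 (-0.17 to 1.54, adjusted p = 0.678) and Cgn by 0.61 (-0.17 to 1.40, adjusted p = 0.687). The fit called 0 of 28 members and 0% of all genes, and 2 members, Cldn3 and Marveld3, had an unadjusted p under 0.05, both higher in HOM (7.14%, against 4.82% of all genes higher, 3.11% lower and 7.93% in either direction). Higher means in HOM were found for 15 members and lower means for 13 (52.4% of all genes were higher and 47.6% lower), with a median of 0.13 against 0.0139. The groups overlapped for all 28 members, while 0.611% of all genes did not overlap with HOM higher and 0.414% with HOM lower. The median was -0.0366 without HET 1, 0.35 without HOM 5 and 0.0018 without HOM 3, and with the epithelial covariate it was -0.0583. Without HET 1 Cldn8 differed by 1.26, Cldn3 by 0.72, Marveld3 by 0.75, Marveld2 by 0.71, Patj by 0.23 and Cgn by 0.40. With the epithelial covariate Cldn8 differed by 0.94, Cldn3 by 0.41, Marveld3 by 0.46, Marveld2 by 0.29, Patj by 0.0684 and Cgn by 0.18.

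**Figure D5:**
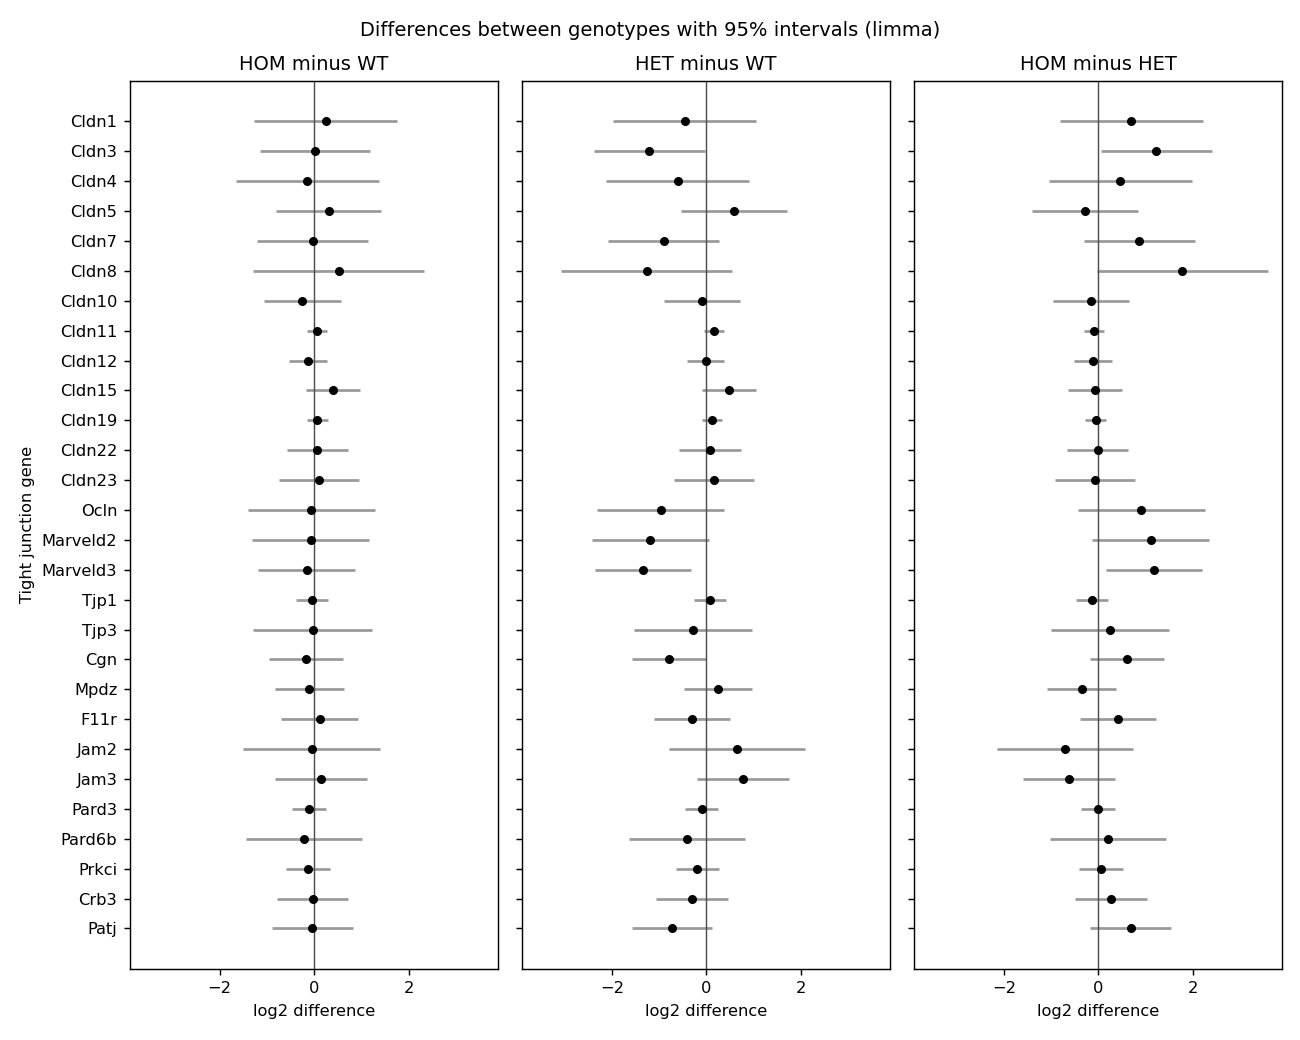
Points are log2 differences of the 28 tested tight junction genes for HOM minus WT, HET minus WT and HOM minus HET, and bars their 95% intervals from limma with all 15 tumors. The bars are narrow for Cldn11, Cldn19, Tjp1 and Pard3 and wide for Cldn8, Cldn1 and Cldn4, and those of Marveld3 and Cldn3 leave 0 out in the middle and right panels before adjustment over all genes.

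The spread between tumors was widest in HET for most members, and less wide there without HET 1. For 20 of the 28 members (71.4%) the SD was largest in HET, against 45.9% of all tested genes, for 6 in HOM (18.9% of all genes) and for 2 in WT (35.2%). The median SD of the members was 0.50 in HOM, 1.09 in HET and 0.46 in WT, and over all genes 0.25, 0.31 and 0.29. Without HET 1 the median SD of the members in HET was 0.62. No test of these spreads was made. Patj had SDs of 0.39 in HOM, 1.10 in HET and 0.13 in WT, and F11r of 0.0937, 1.09 and 0.20.

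Among 46 further genes of tight junctions and their partners, 40 were on the array with a single symbol and 33 were tested. In each comparison 0 passed the test (limma). Lower means were found for 18 of the 33 in HOM against WT, for 20 in HET against WT and for 14 in HOM against HET. Of all tested genes 52.8%, 54.5% and 47.6% were lower in these comparisons. Bves, a gene of striated muscle and epithelium whose protein is found at tight junctions, had the smallest p in both comparisons that involve HET. Bves measured 8.41, 6.85, 8.53, 6.91 and 5.03 in HET 1 to HET 5, against 4.97 to 5.68 in HOM tumors and 4.65 to 5.62 in WT tumors, with differences of 2.05 for HET against WT (adjusted p = 0.207) and -1.96 for HOM against HET (adjusted p = 0.587). HET 1 to HET 4 stood above every HOM and WT tumor and HET 5 did not, and HET 3 was also the tumor with the high muscle marker mean, whose part in these values was not tested. Mpp5, which encodes the Crumbs complex scaffold Pals1, had the smallest p for HOM against WT, 8.31 ± 0.47 in HOM and 8.64 ± 0.16 in WT, with an adjusted p that rounded to 1.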

How the data were processed

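The authors deposited a table of log2 array values for 41345 transcript clusters in 15 tumors. Per the labels' protocols, RNA was labelled with the Affymetrix WT Terminal Labeling Kit, and Expression Console and Transcriptome Analysis Console are the tools in the submitters' processing notes. The sources used here do not give background correction, normalization or genome build. The values ran from 1.06 to 13.9, which a log2 scale fits, with array medians of 5.54 to 5.73. No detection calls were used, so low values have no known background, and the number of arrays limits the precision.

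Clusters were named through the platform annotation: 23521 had 1 gene symbol, 1814 several and 16010 none here. The brightest cluster on average stood for each gene. Genes above the array median on at least 5 arrays (14243) were fitted with limma 3.58.1 in R 4.3.3, all 3 genotypes together, two-sided, Benjamini-Hochberg over all genes, threshold 0.05. The fit was tested on simulated data with known changes and independent normal noise for each gene. Those data held no single tumors set apart across many genes, so the check does not cover that feature of these tumors. Tumors were grouped by the genotype label and numbered in accession order, which pairs nothing. Differences were named for the 6 members with the smallest p in each comparison. The members and lists were chosen with earlier results of these data known. Promoters came from RefSeq, build GRCm38.p6, for 26 of the 33 genes. Alternatives were other filters, renewed normalization, cluster means, other moderation, array weights, fewer groups, an epithelial covariate and tumors left out.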

Additional observations from a re-analysis of the deposited data

Results flagged for a closer look

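A tumor was singled out where its gap to the nearest of the other 4 tumors of its genotype exceeded 0.71 of the group's range. Of 102 groups examined, 8 held such a tumor, where chance gives about 1 in 20. Cldn9 was 5.79 in HOM 5, above 5.16 to 5.27 in the other HOM tumors, 4.71 in HET 1, below 5.23 to 5.36, and 6.44 in WT 4, above 5.18 to 5.40. Cldn6, its neighbour in the genome, was 5.34 in WT 4, above 4.78 to 4.94. These 2 genes did not pass the filter for the test between genotypes, and neither did Cldn18, at 4.82 in HOM 3 and 5.10 to 5.20 in the other HOM tumors. Cldn12 was 7.20 in HOM 5, below 7.70 to 7.81. Cldn22 was 7.08 in HOM 2, above 5.17 to 5.67, and Jam3 was 5.06 in WT 1, below 5.57 to 5.72.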

How the results depend on the processing

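The count of members past the threshold was 0 in each comparison under all alternatives that kept the adjusted threshold of 0.05, and also at 0.1. At an unadjusted p under 0.05 it was 2 for HET against WT, 2 for HOM against HET and 0 for HOM against WT. The lowest adjusted p of the named members under any alternative was 0.0852, that of Marveld3 without HET 5. The differences of the 6 named members kept their sign with 1 tumor left out, except Cldn10 in HOM against WT (-0.45 to 0.0803, positive without WT 4). With WT 5 and HOM 5 both left out, Cldn12 turned to 0.0482 in HOM against WT, and 1 of 28 members did not overlap in HOM against WT and 1, Cldn11, in HET against WT, where 3.04% and 3.58% of all genes did not. With 1 tumor left out, 0 to 1 members did not overlap in HET against WT and in HOM against HET: Marveld3 without HET 5 (4.84% of all genes), Cldn11 without WT 5 (3.58%) and Cldn8 without HET 3 (3.89%). The median of the members then ranged from -0.33 to 0.0453 for HET against WT, from -0.13 to 0.11 for HOM against WT and from -0.0366 to 0.35 for HOM against HET. Without both WT 5 and HOM 5 Ctnnb1 differed by -0.65 in HOM against WT and by -0.49 in HET against WT, a description only, since these tumors were left out for their Ctnnb1 values. With 1 tumor left out it ranged from -0.51 to -0.28, from -0.49 to -0.27 and, for HOM against HET, from -0.15 to 0.0606. The causes were not tested. No paired analysis was made because the labels give no pairing of tumors between genotypes. Without detection calls, differences of members near the array median may be understated.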
